A study of Arabidopsis thaliana with 4 samples.

Results

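EXPA4, EXPB1 and EXLA1 are 3 expansin genes of Arabidopsis thaliana, each read by 1 probe set on the array, out of 22746 probe sets tested. They were taken by gene name, from the expansins other than the root hair genes EXPA7 and EXPA18. They had been selected on measured values, namely the difference in their levels between rsa3-1 and wild type seedlings in an earlier look at these same arrays. Their difference between the genotypes is therefore given as a description, and nothing is read from whether it passes a test. The annotation gave a probe set of its own to 18 of 36 listed expansins, so 15 other expansins can be set beside them.

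Transcripts were measured on 4 Affymetrix ATH1 arrays from whole seedlings, 2 arrays of wild type and 2 of the rsa3-1 mutant, which the design text calls biological replicates. Seedlings of both genotypes were 6 days old and were kept on 120 mM NaCl for 24 h. Wild type here means Columbia gl1, a line with a mutation known for loss of leaf hairs, which carries RD29A::LUC, a luciferase reporter under a stress-responsive promoter, and the labels give rsa3-1 the same background. Since all 4 arrays had salt, the comparison asks how the genotypes differ under salt, and a response to salt itself cannot be read from it. rsa3-1 is the only mutant allele among these samples.

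Expansins are small secreted proteins that loosen the plant cell wall without cutting its polysaccharides, and they are best known for letting acidified walls creep during cell expansion. They are thought to act where cellulose meets xyloglucan, the main hemicellulose of the primary wall in this species. The α-expansins (EXPA) carry most of the known creep activity. The β-expansins (EXPB) are best known from grass pollen. The expansin-like proteins (EXLA and EXLB) share the overall domain layout, but a wall-loosening activity has not been established for them. RSA3 (AT2G20370, also known as MUR3) encodes a galactosyltransferase that decorates xyloglucan. No probe set was named for RSA3 in the annotation used here, and its transcript was not analysed here.

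Values are RMA values on the log2 scale as deposited, so a step of 1 is a doubling. Array medians lay between 6.46 and 6.51, and the lowest value on each array lay between 2.57 and 2.61. Wild type replicate 1 stood apart in its controls: 44 of 45 probe sets for spiked-in bacterial and phage transcripts had their highest value there, with a median excess of 0.94 (log2) relative to the average of the rest. Values without that array are therefore given beside the results. Probe sets differ in how strongly they hybridise, so levels are compared between arrays for 1 gene and not between genes. In RNA from whole seedlings, fewer cells of a type and less transcript per cell cannot be told apart, and the levels do not say in which cells an expansin was expressed.

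EXPA4 and EXLA1 had higher levels in both rsa3-1 arrays than in either wild type array, by about the same amount, and EXPB1 had lower levels. The mean differences were 0.51 for EXPA4, 0.50 for EXLA1 and -0.38 for EXPB1 on the log2 scale, which correspond to levels 1.43-fold higher, 1.41-fold higher and 1.30-fold lower. In each gene the gap between the genotypes was wider than the gap between replicates, narrowly so in EXPB1 (0.26 against 0.22 in wild type). Selection on this contrast favours such a gap, so nothing is read from it. Of the 3 genes 0 were called at an adjusted p under 0.05 in limma over all probe sets, where 1.13% of probe sets were called in either direction (0.659% higher and 0.466% lower). Nothing is read from that count, since the genes were selected on this contrast. The genotypes did not overlap in 3 of 3 genes, as in 38.6% of all probe sets (17.8% higher and 20.9% lower in rsa3-1).

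**Figure D1:**
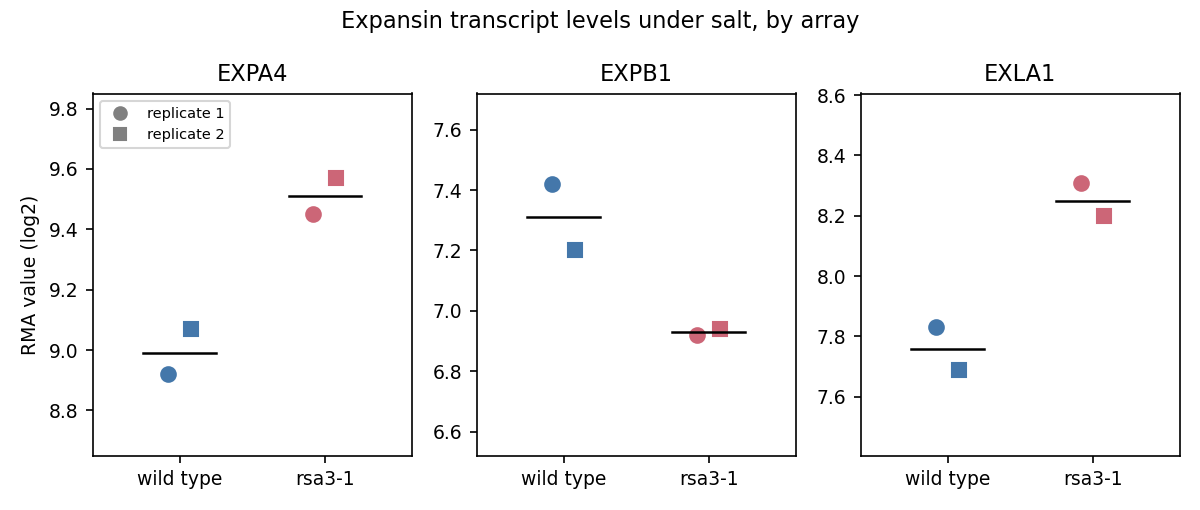
RMA values (log2) of EXPA4, EXPB1 and EXLA1 in the wild type arrays (blue) and the rsa3-1 arrays (red), with replicate 1 as circles, replicate 2 as squares and the genotype mean as a line; each panel has its own range of equal height. The rsa3-1 points of EXPA4 (9.45 and 9.57) and EXLA1 (8.31 and 8.20) lie above the wild type points, and those of EXPB1 (6.92 and 6.94) lie below.

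EXPA4 (AT2G39700, chromosome 2) encodes an α-expansin, the class with the best established wall-loosening activity. Its level was 8.92 and 9.07 in wild type replicates 1 and 2 and 9.45 and 9.57 in rsa3-1 replicates 1 and 2. The rsa3-1 arrays were both higher, and the lowest of them lay 0.37 above the highest wild type array on the log2 scale. The replicates of a genotype were closer together, 0.16 apart in wild type and 0.12 apart in rsa3-1. The mean was 8.99 ± 0.11 for wild type and 9.51 ± 0.08 for rsa3-1 (SD, n = 2 each). The mutant exceeded wild type by 0.51 (log2; standard error 0.11). The 4 differences between an rsa3-1 array and a wild type array ran from 0.37 to 0.65. Without wild type replicate 1 the log2 difference was 0.43.

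EXLA1 (AT3G45970, chromosome 3) encodes an expansin-like A protein. Its level was 7.83 and 7.69 in wild type replicates 1 and 2 and 8.31 and 8.20 in rsa3-1 replicates 1 and 2. As in EXPA4, the rsa3-1 arrays were both higher and the nearest arrays of the genotypes were 0.37 apart on the log2 scale. Replicates differed by 0.14 in wild type and 0.12 in rsa3-1. The mean was 7.76 ± 0.10 for wild type and 8.25 ± 0.08 for rsa3-1 (SD, n = 2 each). The mutant exceeded wild type by 0.50 (log2; standard error 0.11). Within each genotype the arrays stood in the opposite order to that of EXPA4: EXLA1 was higher in replicate 1 and EXPA4 in replicate 2. Without wild type replicate 1 the log2 difference of EXLA1 was 0.57.

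EXPB1 (AT2G20750, chromosome 2) encodes a β-expansin. Its level was 7.42 and 7.20 in wild type replicates 1 and 2 and 6.92 and 6.94 in rsa3-1 replicates 1 and 2. Both rsa3-1 arrays were lower, with the nearest arrays of the genotypes 0.26 apart on the log2 scale. The rsa3-1 arrays differed by 0.01, while the wild type arrays differed by 0.22, close to the gap between the genotypes. The mean was 7.31 ± 0.15 for wild type and 6.93 ± 0.01 for rsa3-1 (SD, n = 2 each), so rsa3-1 minus wild type was -0.38 (log2; standard error 0.11). The highest value was in wild type replicate 1, the array whose spike-in controls stood apart. Without that array the log2 difference was -0.27, and without wild type replicate 2 it was -0.49.

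These differences were modest beside the range over the whole array, which ran from -2.19 to 4.19 on the log2 scale. An absolute log2 difference at least as large as that of EXPA4 was seen in 2.14% of all probe sets, as large as that of EXLA1 in 2.28%, and as large as that of EXPB1 in 4.09%.

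**Figure D2:**
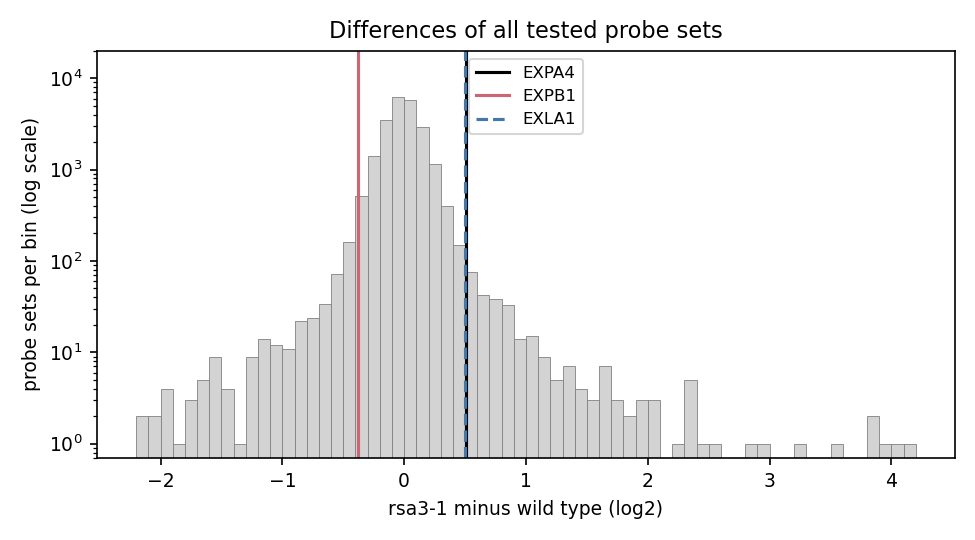
Number of probe sets (vertical axis, log scale) by their difference between rsa3-1 and wild type (horizontal axis, log2, in steps of 0.1), with lines at EXPA4, EXPB1 and EXLA1. The lines at 0.51, 0.50 and -0.38 stand at the edges of the central peak, well inside the longest tails.

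Among all 18 measured expansins, EXPA4 and EXLA1 had the largest positive differences, the contrast on which they had been selected. The next in value was EXLA3 at 0.17, whose wild type mean of 3.88 was near the lowest values on the arrays. EXLA3 was at 0.33 without rsa3-1 replicate 1 and at 0.00 without rsa3-1 replicate 2, at 0.25 without wild type replicate 1 and at 0.08 without wild type replicate 2. On the lower side EXPB1 did not stand alone. EXPA8, an α-expansin, had a larger negative difference of -0.44, and EXPA18 at -0.37 and EXPB3 at -0.29 were near EXPB1. Over the family 8 genes were higher in value in rsa3-1 and 10 were lower, with a median log2 difference of -0.01, equal to the -0.01 over all probe sets. That balance includes 6 genes with a wild type mean under 5, of which 4 were higher and 2 lower (median 0.08). Of the 12 genes with a wild type mean of at least 5, 4 were higher and 8 lower (median -0.11). These 12 include the 3 genes selected on this contrast. Of the 15 expansins other than EXPA4, EXPB1 and EXLA1, 0 were called in limma, against 1.13% of all probe sets. With so few genes and so low a share, nothing is read from that count. Of these 15, EXPA8, EXPA18 and EXPB3 had an unadjusted p under 0.05, as did 9.68% of all probe sets, and without wild type replicate 1 the count was 1 in place of 3. Without that array 7 of the 18 genes were higher in value and 11 lower.

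**Figure D3:**
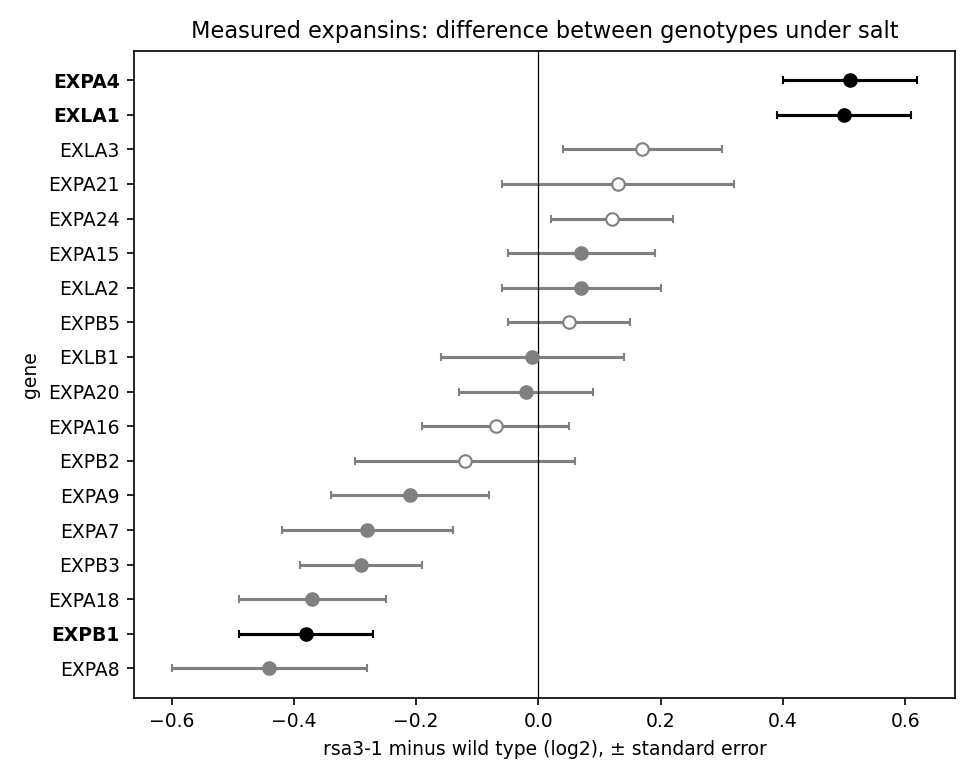
Difference between rsa3-1 and wild type (log2, horizontal axis) with its standard error from limma for the 18 measured expansins, ordered by value; EXPA4, EXLA1 and EXPB1 are in black and open points mark genes with a wild type mean under 5. EXPA4 and EXLA1 lie at 0.51 and 0.50, with the next gene at 0.17, while EXPB1 at -0.38 lies between EXPA18 and EXPA8.

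By class, the other α-expansins were spread on both sides of 0. EXPA8 was at 8.24 and 8.07 on the wild type arrays, against 7.94 and 7.49 in the mutant (replicates 1 and 2 each). Its groups did not overlap, but rsa3-1 replicate 2 was far below replicate 1, and the log2 difference of EXPA8 was -0.21 without that array and -0.67 without rsa3-1 replicate 1. EXPA9 was at -0.21, with values from -0.34 without rsa3-1 replicate 2 to -0.08 without rsa3-1 replicate 1 and, between them, -0.31 without wild type replicate 2 and -0.10 without wild type replicate 1. EXPA20 was at -0.02 and EXPA15 at 0.07. EXPA15 had values of 8.86 and 9.12 on the wild type arrays, against 9.01 and 9.11 in the mutant, so its genotypes overlapped. EXPA16, EXPA21 and EXPA24 had differences of -0.07, 0.13 and 0.12 at wild type means of 4.63, 3.98 and 3.58. Without detection calls, such low levels cannot be told from background.

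EXPB3, the other β-expansin of clear level, was at 8.66 and 8.75 on the wild type arrays, against 8.39 and 8.44 in the mutant. Like EXPB1 it was lower in both rsa3-1 arrays (log2 difference -0.29, standard error 0.10). Its highest array was wild type replicate 2, so the 2 genes differed in their order within wild type. Without wild type replicate 1 the log2 difference of EXPB3 was -0.33. EXPB2 and EXPB5 were at -0.12 and 0.05 with wild type means of 4.81 and 3.75, too low to be told from background.

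The other expansin-like genes had smaller differences than EXLA1. EXLA2 was at 6.72 and 6.42 on the wild type arrays, against 6.72 and 6.57 in the mutant, overlapping between the genotypes (log2 difference 0.07, standard error 0.13). EXLA3 lies next to EXLA1 on chromosome 3 in the RefSeq gene order, and each has a probe set that names it alone. EXLA3 was at 3.96 and 3.79 on the wild type arrays, against 3.88 and 4.20 in the mutant, and the genotypes overlapped. EXLB1 was at 10.27 and 10.62 on the wild type arrays, against 10.30 and 10.57 in the mutant (log2 difference -0.01, standard error 0.15). Whether the difference of EXLA1 departs from those of the other EXL genes was not tested.

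The root hair expansins EXPA7 and EXPA18 had log2 differences of -0.28 and -0.37. EXPA7 was at -0.08 without rsa3-1 replicate 1 and at -0.48 without rsa3-1 replicate 2. EXPA18 was at 7.30 and 7.05 on the wild type arrays, against 6.80 and 6.81 in the mutant, array by array in the same order and spacing as EXPB1. Likeness was measured as the root mean square difference between log2 profiles over the 4 arrays, each profile centred on its own mean. For EXPB1 that distance to EXPA18 was 0.013, the second smallest of 13435 probe sets naming 1 gene. ATATH8 was nearest, at 0.0088, and AT5G09840 followed at 0.014. Over 4 arrays many genes come close to any profile. EXPA18 was at rank 47 without wild type replicate 1 and at rank 12 to 17 without an rsa3-1 array. It stayed at rank 2 without wild type replicate 2 and was at rank 1 with quantile normalization. The next expansins in likeness to EXPB1 were EXPB3, at rank 821, and EXPA9, at rank 946, both at 0.12.

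For EXPA4 the nearest profiles were those of AT4G22640 at 0.0088, AT1G28190 at 0.021 and AT2G01300 at 0.022. For EXLA1 they were AT3G16530, which encodes a legume-type lectin, at 0.022, AT4G20320 at 0.023 and AT4G11000 at 0.025. These neighbours changed with the arrays used: with 1 array left out, 1 to 2 of the nearest 3 stayed for EXPA4, 0 to 1 for EXLA1 and 0 to 1 for EXPB1, and with quantile normalization 1, 3 and 2 stayed. The wild type values of AT1G28190, AT2G01300 and AT4G11000 lay under 5 and cannot be told from background. Those of AT4G22640 (4.97 and 5.13) and of AT5G09840, near EXPB1 in profile (5.15 and 4.95), lay close to 5, so the same limit applies. EXPA4 and EXLA1 were less like each other, at a distance of 0.14. EXLA1 stood at rank 263 for EXPA4, and EXPA4 at rank 278 for EXLA1, and within each genotype the arrays of these genes stood in opposite order.

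**Figure D4:**
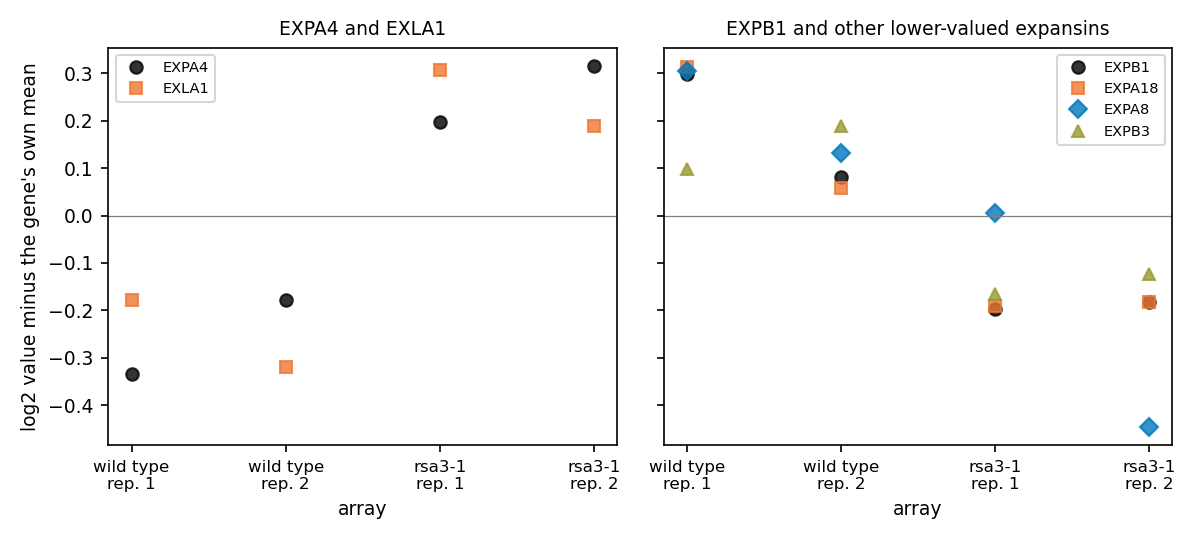
Log2 value on each of the 4 arrays after subtracting the gene's own mean, for EXPA4 with EXLA1 (left) and for EXPB1 with EXPA18, EXPA8 and EXPB3 (right). EXPA18 overlies EXPB1 on every array, while EXPA4 and EXLA1 change order between replicates 1 and 2 of each genotype.

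Markers of cell types were read beside these values. For root hairs 3 of 8 listed markers were measured, EXPA7, EXPA18 and AT4G26010. All 3 were lower in value in rsa3-1, with log2 differences from -0.37 to -0.05. EXPA7 and EXPA18 are the expansins described above, and AT4G26010, the marker outside the family, was at -0.05. The summed log2 level of these markers was 9.11 and 8.94 in wild type replicates 1 and 2, and 8.80 and 8.88 in rsa3-1. It moved in the direction of EXPB1, but it includes EXPA7 and EXPA18 and was highest in wild type replicate 1. Its part in the difference of EXPB1 was not tested. The root gene PYK10, measured from a list of 7, was at 13.45 to 13.54 in wild type and 13.38 to 13.40 in rsa3-1. Of 8 photosynthetic shoot genes 4 were measured, with log2 differences from 0.04 to 0.28 and a median of 0.08. Their summed level was 14.96 in both wild type arrays and 15.04 to 15.07 in rsa3-1, in the direction of EXPA4 and EXLA1. The part of this shift in the differences of EXPA4 and EXLA1 was not tested. The guard cell genes, 2 of 4 measured, had summed levels of 7.89 to 8.24 in wild type and 7.93 to 8.00 in rsa3-1. Of these 10 markers 0 were called in limma, against 1.13% of all probe sets, and 2 had an unadjusted p under 0.05, against 9.68%.

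In the RefSeq gene order EXPB1 lies on the same chromosome as RSA3, with 49 protein-coding genes between them. Of these, 23 were measured, by 24 probe sets. Their log2 differences had a median of 0.01 and ran from -0.37 to 0.20, with 9 probe sets lower and 15 higher in value. Several of the 24 had a wild type mean under 5, which cannot be told from background. In limma 0 of the 24 were called and 1 had an unadjusted p under 0.05, against 1.13% and 9.68% of all probe sets. The lowest difference was that of AT2G20480, with means of 5.51 in wild type and 5.14 in rsa3-1, and was close to that of EXPB1. The genes on either side of EXPB1, AT2G20740 and AT2G20760, were at -0.08 and 0.06, with a further probe set of AT2G20740 at 0.15. AT2G39690, the measured neighbour of EXPA4, was at -0.03, but its wild type mean of 5.03 lay close to that limit of 5.

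Among xyloglucan endotransglucosylase/hydrolases, enzymes that cut and rejoin xyloglucan chains, 9 genes were measured. In limma 1 of them was called, XTH18, in the higher direction, where 0.659% of all probe sets were called higher. The median log2 difference of these 9 genes, which need not be the whole family, was 0.15, with 6 higher and 3 lower in value. Of the 9, 3 had a wild type mean under 5 and cannot be told from background. Expansins and these enzymes are both counted as wall-loosening proteins, and the difference between the families was not tested.

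**Figure D5:**
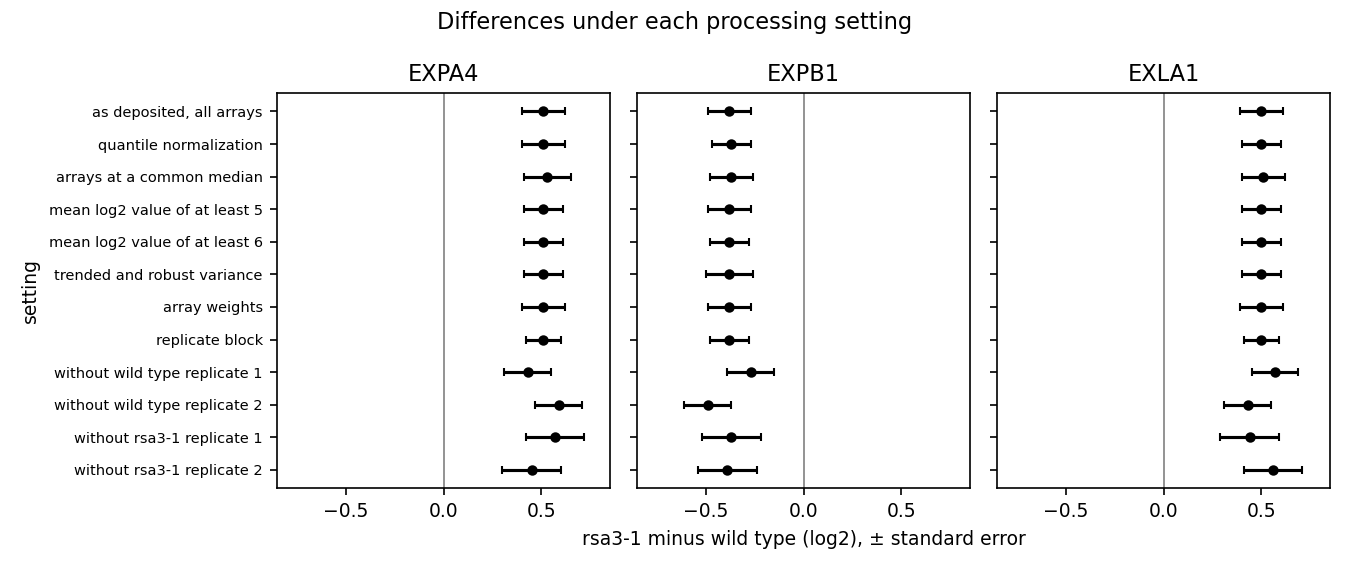
Difference between rsa3-1 and wild type (log2, horizontal axis) with its standard error for EXPA4, EXPB1 and EXLA1 under each setting (vertical axis). EXPA4 runs from 0.43 to 0.59, EXLA1 from 0.43 to 0.57 and EXPB1 from -0.49 to -0.27, and the extremes come from leaving out 1 array.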

How the data were processed

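The authors deposited log2 values made with RMA, per the submitters' processing notes, a method that subtracts background, equalises the arrays and gives 1 value per probe set. The RMA software was not given in the sources used here. RMA compresses differences among dim probe sets, and its normalization removes a change shared by most transcripts. The values were used as deposited. After removing 64 array controls, 22746 probe sets were fitted as rsa3-1 minus wild type with lmFit and eBayes of limma 3.58.1 under R 4.3.3, two-sided, with Benjamini-Hochberg adjustment over all of them and a threshold of 0.05. The number of arrays, 4, limits the precision. The procedure was tested on simulated data, drawn without batch or array effects, and no result given here rests on that test.

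The platform annotation named 1 gene for 13513 probe sets and several for 503, and did not list 8730; 13436 matched RefSeq TAIR10.1 by gene identifier. Coordinates are left out, since the annotation names no genome build. Of the 36 expansins listed, 4 share 2 probe sets and 14 have none named for them here. No sequences were used.

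The genes, the lists and the tests were chosen with earlier results of these data known. Named are EXPA4, EXPB1 and EXLA1, the other measured expansins, the 3 probe sets nearest each in profile, the genes adjacent in RefSeq order, and AT2G20480 and XTH18, singled out after their values were seen. Alternatives covered scaling, filters at mean log2 values of 5 and 6, trended and robust variance, array weights, a replicate block, leaving out each array, and other thresholds. Tables and figures used Python 3.11.15, pandas 2.3.3 and matplotlib 3.10.9.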

Additional observations from a re-analysis of the deposited data

How the results depend on the processing

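Under 11 other fits the log2 difference of EXPA4 ran from 0.43 to 0.59, that of EXLA1 from 0.43 to 0.57 and that of EXPB1 from -0.49 to -0.27. Because the genotypes did not overlap in these genes, leaving out an array could not turn their direction. The 0 expansins called became 2 with trended and robust variance in limma, where 352 of all 22746 probe sets were called. These were EXPA4 and EXLA1, both selected on this contrast. At an unadjusted p under 0.05 in limma 6 expansins passed, against 9.68% of all probe sets, and 3 of them are the genes selected on this contrast. In the other fits 0 were called. The 256 probe sets called over the whole array became 42 with the replicate number as a block, 135 with a 2-fold minimum, 2202 at an unadjusted p under 0.05, and 102 to 222 with 1 array left out, the lone array being assumed to vary like the other genotype. With the block 0 expansins were called. Over all probe sets, arrays with the same replicate number showed little shared deviation from their genotype means (r = 0.0126). That value does not speak for single genes. In EXPA4 and in EXLA1 the replicates stood in the same order in both genotypes, though that order was opposite between the 2 genes. In EXPB1 replicate 1 was higher in wild type and replicate 2 in rsa3-1, where the arrays differed by 0.01. Whether same-numbered arrays share a batch was not tested. Differences near 0 changed sign with 1 array left out: EXLA2 ran from -0.08 to 0.22, EXLB1 from -0.19 to 0.17, EXPA15 from -0.06 to 0.20, EXPA16 from -0.21 to 0.06, EXPA20 from -0.10 to 0.07, EXPA21 from -0.10 to 0.36 and EXPB2 from -0.32 to 0.09. EXLB1 was at 0.00 with arrays at a common median. The counts over the family under each fit and the rank of EXPA18 without each array were chosen after seeing the data. Signal over background is unknown without detection calls, which limits the 6 expansins with a wild type mean under 5.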
